A study of Mus musculus with 9 samples.

Results

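The Bcl2 family decides whether a cell keeps its mitochondria intact or releases the proteins that start apoptosis. Anti-apoptotic members such as Bcl2, Bcl2l1 (Bcl-xL) and Mcl1 hold the pore-forming effectors Bax and Bak1 in check or bind their activators. BH3-only members such as Bid, Bcl2l11 (Bim), Bmf and Bbc3 (Puma) carry death signals to these proteins. Bok is counted here with the effectors. Pluripotent cells are known to be poised for apoptosis, and Mcl1 is required before implantation in the mouse embryo. These statements are background, and only RNA was measured here.

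The genes examined were Bcl2, Bcl2l1, Mcl1, Bax, Bak1, Bok, Bid, Bcl2l11, Bmf and Bbc3, 10 in all, each through every probe set that the array's annotation pairs with that symbol alone. This gave 30 of 45037 probe sets, covering 9 of the 10 genes among 18193 genes in all. No probe set is paired with Bax in the annotation used here, so Bax was not analysed. RNA of untreated E14 mouse embryonic stem cells (ESCs; arrays labelled ES2, ES6, ES8 and ES10) and of embryoid bodies from the same line (EBs; EB1, EB3, EB5, EB7 and EB9), aggregates in which ESCs differentiate into mixed cell types, was hybridized to 9 Affymetrix arrays. Both groups come from a single cell line. The study's methods call its GeneChip arrays of E14 ESCs biological replicates, but the sources used here give neither the age of the EBs nor whether each EB array came from a separate culture, so P values measure only the spread between these arrays. All values are log2 GCRMA values, a background-corrected and normalized array intensity on which a difference of 1 is a doubling. A gene or probe set was called at a Benjamini-Hochberg adjusted p under 0.05 in limma over all 45037 probe sets, two-sided, and a gene was represented by its probe set of highest mean.

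Array medians lay between 4.01 and 4.09, and 49.1% to 49.9% of probe sets on each array read under log2 4, near the floor of the scale. The groups matched their labels in most markers: 9 of 10 pluripotency genes were lower in EBs and Nanog went from 10.54 to 7.20, with Esrrb the exception at 8.50 and 8.36. In EBs, 6 of 11 mesoderm, heart and endothelial markers, 6 of 6 of mesenchyme, 3 of 6 of endoderm and 3 of 5 of primitive erythroid cells were higher. Of 5 white blood cell markers 0 were called in the limma fit, with Ptprc, the pan-leukocyte marker, at 2.53 and 2.48, and of 5 neural markers 1 was higher and 1 lower. The EB arrays thus carried transcripts of several cell types, and fewer cells of a type and less RNA per cell cannot be told apart. The part of this mixture in the differences below was not tested.

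The ESC arrays were not alike in markers of other cells. Both ES8 and ES10 read above both ES2 and ES6 for 4 of 6 mesenchyme markers and 2 of 11 of mesoderm, heart and endothelium, by over 0.5 for Col3a1 (3.12 and 3.65 on ES2 and ES6, 6.28 and 5.51 on ES8 and ES10), Col1a1 (6.98 and 6.78, 9.03 and 9.02), Prrx1, Actc1 and Kdr. The summed linear level of the mesenchyme markers was 344 and 290 on ES2 and ES6 and 842 and 812 on ES8 and ES10, against 10069 to 10858 on the EB arrays. That of the mesoderm list was 352 and 389, then 622 and 600, against 10967 to 13140. On each ESC array Col1a1 had the highest reading of the mesenchyme list, so it weighs most in the mesenchyme sums of those arrays. Of these 2 lists, Postn, Mesp1, Hand2, Tbx5, Tnnt2, Myl7 and Pecam1 lay under log2 4 on all 4 ESC arrays. Col1a1, Col1a2, Twist1, Prrx1, Hand1, Gata4, Nkx2-5 and Actc1 lay above it on all 4, and Col3a1 and Kdr on either side. Of 10 pluripotency genes, 4 also read higher on both ES8 and ES10, by over 0.5 for Klf4, and 3 read lower. Several members split along the same lines, and the part of these transcripts in that split was not tested. Without ES8 and ES10, or without ES2 and ES6, all 12 of the members' probe set calls given below remained, settings chosen after the values were seen.

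In EBs the transcripts of Mcl1, Bid, Bbc3 and Bok were lower and that of Bmf was higher, while Bcl2l1, Bak1 and Bcl2l11 passed the test with none of their probe sets. Of the 9 genes, 4 were called lower, where 14.7% of all genes were, and 1 higher, where 15.7% were, which makes 5 called against 30.4%. The arrays of the groups did not overlap for the same number, 5 of 9, against 35.0% of all genes. Of the 30 probe sets, 12 were called (10 lower and 2 higher), against 21.1% of all probe sets. The groups did not overlap for 13 of the 30, against 26.3% of all probe sets. The shares over all genes and all probe sets include those near the floor. Among probe sets with a mean of at least log2 4, 10 of 23 in the family were lower and 2 higher. Over all 22766 such probe sets, 4957 were lower and 5047 higher. Probe sets of a gene share their RNA and often their target, so the 9 genes are the count to read.

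**Figure D1:**
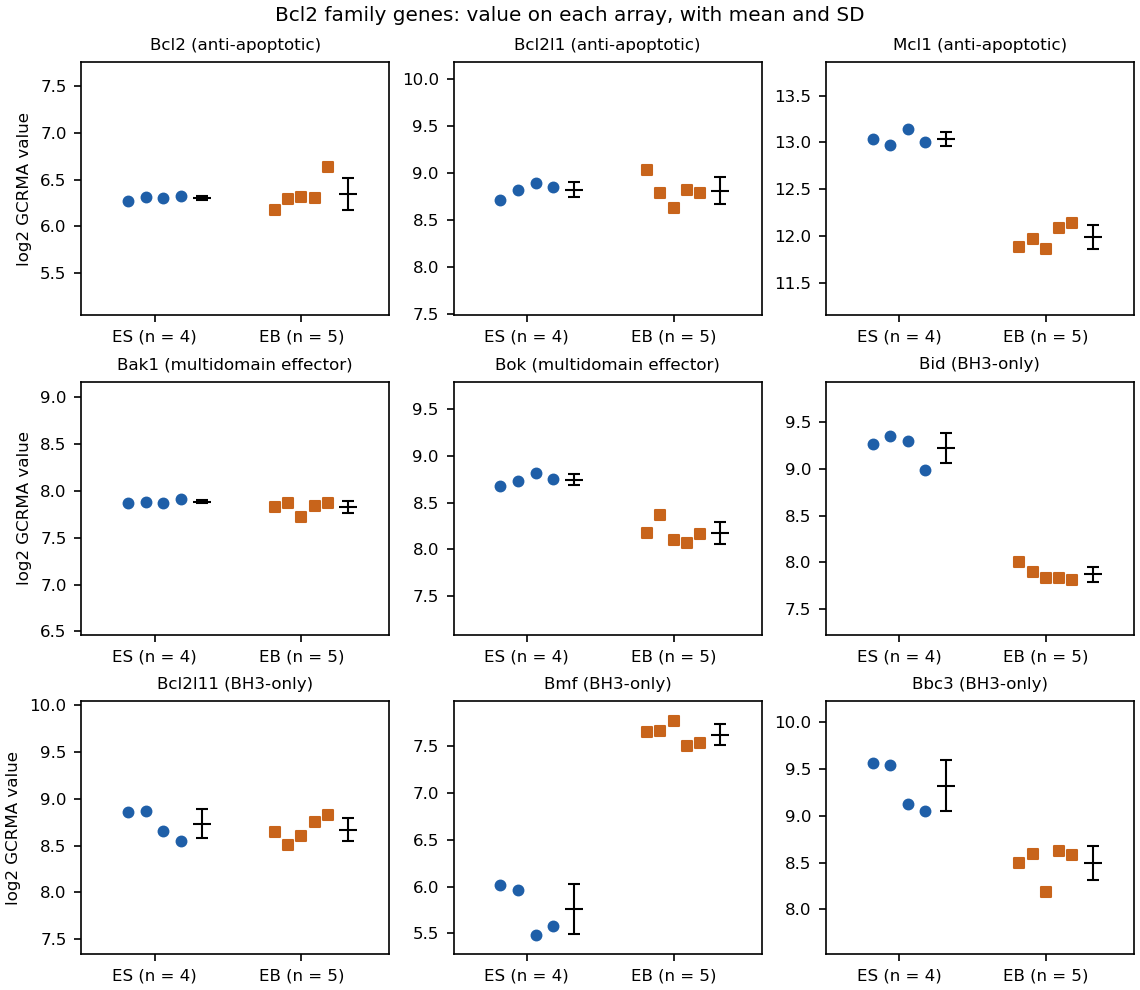
Log2 GCRMA value (vertical axis, each panel spanning the same range) on each of 4 ESC arrays (ES, circles) and 5 embryoid body arrays (EB, squares) for the probe set that represents each of 9 Bcl2 family genes, with the mean and SD in black. Mcl1, Bok, Bid and Bbc3 lie lower on every EB array than on any ESC array, Bmf lies higher, and the groups overlap for the other 4 genes.

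Promoter windows of the 4 genes with the largest differences, Mcl1, Bid, Bbc3 and Bmf, are shown because their transcripts moved in both directions. Each runs from 250 bases before to 50 after a RefSeq transcription start (GRCm38.p6, 5′ to 3′ on the gene's strand), taken at the most upstream start where RefSeq lists several (3 for Bmf and 3 for Bbc3). Capitals mark matches on either strand to the GC box GGGCGG or the CCAAT box CCAAT. The Mcl1 window is chr3:95658471-95658770 on the plus strand, that of Bid chr6:120916775-120917074 on the minus strand, that of Bbc3 chr7:16309333-16309632 on the plus strand, and that of Bmf chr2:118549637-118549936 on the minus strand.
Mcl1: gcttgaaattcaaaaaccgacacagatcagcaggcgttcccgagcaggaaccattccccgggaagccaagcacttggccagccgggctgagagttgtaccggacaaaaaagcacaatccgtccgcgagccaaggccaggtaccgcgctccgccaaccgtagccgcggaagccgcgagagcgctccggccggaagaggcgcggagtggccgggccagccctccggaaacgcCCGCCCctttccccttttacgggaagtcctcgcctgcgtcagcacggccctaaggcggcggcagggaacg
Bid: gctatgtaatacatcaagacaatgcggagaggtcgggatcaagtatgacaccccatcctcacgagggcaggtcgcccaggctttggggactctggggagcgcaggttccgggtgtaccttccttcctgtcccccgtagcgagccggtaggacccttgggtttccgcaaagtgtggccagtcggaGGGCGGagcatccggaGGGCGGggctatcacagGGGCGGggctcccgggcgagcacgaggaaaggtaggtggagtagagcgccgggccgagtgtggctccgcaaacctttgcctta
Bbc3: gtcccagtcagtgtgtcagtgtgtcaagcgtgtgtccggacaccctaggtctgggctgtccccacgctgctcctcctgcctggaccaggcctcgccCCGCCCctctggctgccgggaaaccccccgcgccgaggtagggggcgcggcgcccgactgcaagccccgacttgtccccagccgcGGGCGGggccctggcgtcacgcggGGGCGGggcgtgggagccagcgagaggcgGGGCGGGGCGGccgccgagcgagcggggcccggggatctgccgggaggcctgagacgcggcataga
Bmf: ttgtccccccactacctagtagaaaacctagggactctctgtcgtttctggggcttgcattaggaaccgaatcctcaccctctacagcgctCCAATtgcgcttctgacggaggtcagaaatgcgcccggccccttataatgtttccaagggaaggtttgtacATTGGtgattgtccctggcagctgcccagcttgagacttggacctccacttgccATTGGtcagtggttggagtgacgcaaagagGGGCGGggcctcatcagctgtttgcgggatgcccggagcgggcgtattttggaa

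The 3 windows shown of genes lower in EBs held GC boxes and no CCAAT box, with 1 GC box for Mcl1, 3 for Bid and 5 for Bbc3. The Bmf window held 1 GC box and 3 CCAAT boxes. Of the members not shown, Bok, also lower, had 1 GC box and no CCAAT box. The uncalled Bcl2 had 7 GC boxes and no CCAAT box, and the uncalled Bcl2l11 had 3 and 1. Bax, not measured, had 3 GC boxes and no CCAAT box, and the uncalled Bak1 and Bcl2l1 had neither. Of 32851 windows of all genes, 35.7% held a GC box and 37.4% a CCAAT box, so both are common. None of the 4 windows shown held the E-box CACGTG, the TATA box TATAAA, the FOXO motif GTAAACA or the cAMP response element TGACGTCA, which 7.15%, 13.6%, 3.65% and 1.79% of all windows held. The GC content was 65.7% for Mcl1, 63.3% for Bid, 76.0% for Bbc3 and 55.3% for Bmf. A match is a description of letters, not a binding site.

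Among the anti-apoptotic genes, Mcl1, a short-lived protein that binds Bak1 and BH3-only proteins, was the one whose representative differed. On its probe set 1448503_at, the ESC arrays read 13.03, 12.97, 13.15 and 13.00 in the order ES2, ES6, ES8, ES10, and the EB arrays 11.89, 11.97, 11.86, 12.09 and 12.15 in the order EB1, EB3, EB5, EB7, EB9. Every EB array lay below every ESC array, with a gap of 0.83 between the groups. The mean was 13.04 ± 0.08 (SD, n = 4) in ESCs and 11.99 ± 0.12 (n = 5) in EBs, a fall of 2.07-fold (log2 difference -1.05, SE 0.07, limma adjusted p = 4.8e-06).

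All 6 Mcl1 probe sets were called lower in EBs, with differences from -1.02 to -1.53. The largest was that of 1416881_at, whose ESC arrays read 10.63, 10.82, 10.75 and 10.78 and whose EB arrays read 9.13, 9.26, 8.97, 9.42 and 9.29 (limma adjusted p = 3.1e-06). Here too the groups were apart, by 1.21. Of the other 4, 3 are of the _x_at type, whose probes may also bind other transcripts, and gave -1.08, -1.02 and -1.18. On these 3 probe sets and on 1416880_at, ES2 and ES6 read above ES8 and ES10, by 0.24 to 0.39 in the mean, but on 1448503_at and 1416881_at ES2 and ES6 averaged 0.07 and 0.04 below.

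Bcl2l1 encodes Bcl-xL, and by alternative splicing the pro-apoptotic Bcl-xS. Its representative 1420888_at read 8.72, 8.82, 8.90 and 8.86 on the ESC arrays and 9.04, 8.79, 8.63, 8.82 and 8.79 on the EB arrays. The groups overlapped, with both the highest and the lowest value on an EB array. The difference was -0.01 (95% interval -0.19 to 0.17, limma adjusted p = 0.925). The other 3 probe sets gave -0.15, -0.04 and -0.11, none of them called, and 1426050_at lay at the floor near 2.0.

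Within each array, Mcl1 fell relative to Bcl2l1. With the log2 ratio of the 2 representatives set to a mean of 0 in ESCs, the ESC arrays ranged from -0.07 to 0.10 and the EB arrays from -1.36 to -0.86. The ratio shows unequal change between the 2 genes and not that either one stayed the same.

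Bcl2, the founding member of the family, gave readings that differed between its probe sets. The representative 1422938_at read 6.27, 6.31, 6.31 and 6.33 on the ESC arrays and 6.17, 6.29, 6.32, 6.31 and 6.63 on the EB arrays. Of these arrays EB9 read highest and EB1 lowest, and the difference of 0.04 was not called (95% interval -0.15 to 0.24, limma adjusted p = 0.707). Probe set 1457687_at read 5.52, 5.49, 4.72 and 4.79 on the ESC arrays and 6.01, 5.88, 5.91, 6.30 and 6.13 on the EB arrays. All EB arrays were above all ESC arrays, by a gap of 0.36, and the difference of 0.92 (SE 0.19, limma adjusted p = 0.0065) was called. The ESC arrays themselves fell into a higher pair, ES2 and ES6, and a lower pair, ES8 and ES10.

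A further Bcl2 probe set, 1437122_at, with means under log2 4, read 3.50 ± 0.41 in ESCs and 3.94 ± 0.18 in EBs and was not called (difference 0.43, limma adjusted p = 0.0898). The last 2, 1440770_at at means of 4.21 and 4.10 and 1443837_x_at at 2.40 and 2.37, differed by -0.11 and -0.03 without a call. The calls for Bcl2 thus depend on the probe set: 1 of 5 rose. Which Bcl2 transcripts the probe sets detect was not examined here.

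**Figure D2:**
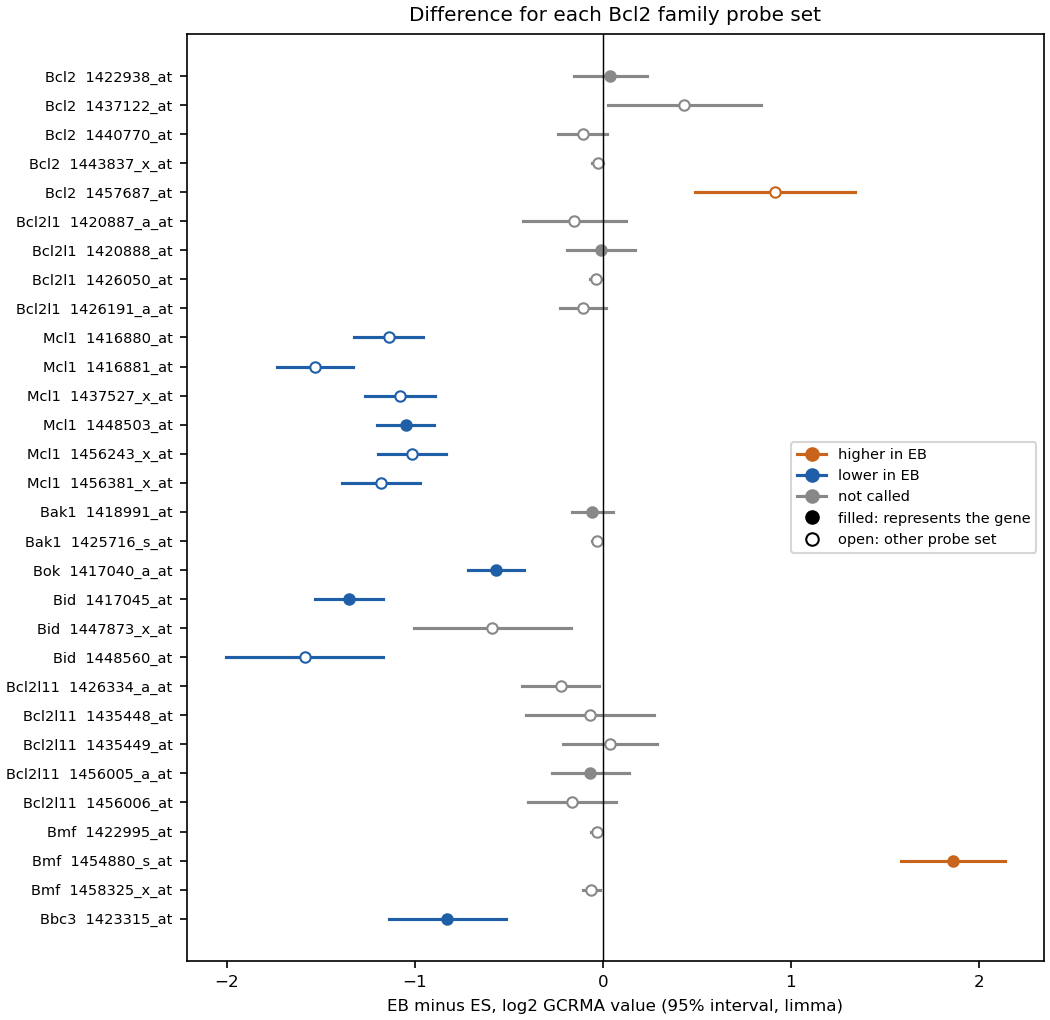
EB minus ESC difference in log2 GCRMA value (horizontal axis) with its 95% interval for each of 30 Bcl2 family probe sets (vertical axis), coloured by call and filled where the probe set represents its gene. The 6 Mcl1 probe sets lie from -1.53 to -1.02, 1 of 3 Bmf probe sets at 1.86, and those of Bcl2l1, Bak1 and Bcl2l11 lie near 0.

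Of the effectors, Bok, which can permeabilize the outer mitochondrial membrane and is controlled in part by its degradation, was lower in EBs. Its only probe set, 1417040_a_at, read 8.68, 8.73, 8.82 and 8.76 on the ESC arrays and 8.18, 8.36, 8.10, 8.07 and 8.17 on the EB arrays. The groups were apart by 0.31, with EB3 the nearest to the ESC arrays. The fall was 1.48-fold (log2 difference -0.57, SE 0.07, limma adjusted p = 2.1e-04).

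Bak1, an effector that resides on the outer mitochondrial membrane, read 7.87, 7.88, 7.87 and 7.91 on the ESC arrays and 7.83, 7.87, 7.72, 7.84 and 7.87 on the EB arrays on its representative 1418991_at. Apart from EB5 these 9 values lay within a narrow band, and the groups overlapped. The difference was -0.06 (95% interval -0.17 to 0.05, limma adjusted p = 0.336). With quantile normalization it was -0.15 with an adjusted p of 0.0436, against 0.0436 to 0.594 over all alternatives. The second probe set, 1425716_s_at, lay at the floor at 2.19 and 2.15. Within arrays, the log2 ratio of Bok to Bak1 ran from -0.06 to 0.08 in ESCs and from -0.64 to -0.37 in EBs, again with its ESC mean set to 0.

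Among the BH3-only genes, Bid, which is cut by caspases to an active form and so links death receptors to mitochondria, showed the largest fall of the 9 genes. Probe set 1417045_at read 9.26, 9.35, 9.30 and 8.99 on the ESC arrays and 7.999, 7.90, 7.83, 7.83 and 7.81 on the EB arrays. The groups were apart by 0.99, and ES10 was the lowest of the ESC arrays. The fall was 2.55-fold (log2 difference -1.35, SE 0.08, limma adjusted p = 3.3e-06).

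A second Bid probe set, 1448560_at, read 5.31, 5.89, 6.12 and 5.50 on the ESC arrays and 4.26, 4.31, 3.99, 4.31 and 3.74 on the EB arrays. The groups did not overlap and the difference was -1.59 (SE 0.18, limma adjusted p = 2.0e-04). The third, 1447873_x_at, read 4.30 ± 0.31 (n = 4) and 3.71 ± 0.31 (n = 5) and missed the threshold (difference -0.59, limma adjusted p = 0.0528), although its groups did not overlap. It was called in 5 alternatives, among them the label-number block described below (difference -0.61, limma adjusted p = 0.038).

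Bmf, a BH3-only protein known to bind a dynein light chain, was the only one of the 9 genes called higher in EBs, and its probe sets disagreed. On 1454880_s_at the ESC arrays read 6.02, 5.96, 5.48 and 5.57 and the EB arrays 7.65, 7.66, 7.77, 7.497 and 7.53. The groups were apart by 1.48, and the ESC arrays split into ES2 and ES6 above ES8 and ES10. The rise was 3.64-fold (log2 difference 1.86, SE 0.12, limma adjusted p = 5.7e-06). The other 2 probe sets, 1422995_at and 1458325_x_at, read between 2.39 and 2.57 on all 9 arrays, at the floor, and differed by -0.03 and -0.06 without a call. With the 3 averaged, Bmf differed by 0.59. The rise therefore rests on 1 probe set, of the _s_at type, whose probes may match more than 1 transcript. Within arrays, the log2 ratio of Bmf to Bid, with its ESC mean set to 0, ran from -0.35 to 0.22 in ESCs and from 3.11 to 3.41 in EBs. That these ranges lie apart was fixed in advance, since on every EB array Bmf lay above and Bid below all ESC arrays.

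Bbc3 encodes Puma, a p53 target that binds all anti-apoptotic members. Its only probe set, 1423315_at, read 9.56, 9.54, 9.12 and 9.05 on the ESC arrays and 8.50, 8.59, 8.18, 8.62 and 8.58 on the EB arrays. The groups were apart by 0.44, with EB5 the lowest array. The fall was 1.77-fold (log2 difference -0.83, SE 0.14, limma adjusted p = 0.0018).

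Bcl2l11 encodes Bim, a potent activator of Bax and Bak1. Its representative 1456005_a_at read 8.86, 8.87, 8.65 and 8.55 on the ESC arrays and 8.65, 8.51, 8.60, 8.75 and 8.83 on the EB arrays. The groups overlapped, and the difference was -0.07 (95% interval -0.27 to 0.14, limma adjusted p = 0.551). All 5 probe sets were without a call, with differences from -0.23 to 0.04. On 1435448_at, ES2 and ES6 read 8.69 and 8.76 and ES8 and ES10 read 8.27 and 8.02, so that the spread within ESCs (SD 0.36) was larger than the difference of -0.07. Without ES8 and ES10, this probe set and 1426334_a_at were called lower, at -0.36 (limma adjusted p = 0.018) and -0.35 (0.0491). Without ES2 and ES6 instead, neither was called and 1435448_at differed by 0.23, so its sign depends on which ESC arrays are kept.

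Since several ESC readings split by the array's label number, each difference was also taken within the arrays labelled 1 to 6 (2 ESC and 3 EB) and within those labelled 7 to 10 (2 and 2). The labels do not say what the numbers stand for. All 12 called probe sets kept their sign in both ranges. This was fixed in advance, since for each of them all EB arrays lay on the same side of all ESC arrays, so only the sizes are informative. Bbc3 differed by -1.13 in the first and -0.49 in the second, Bcl2 on 1457687_at by 0.43 and 1.46, Mcl1 on 1448503_at by -1.10 and -0.96, Bid on 1417045_at by -1.40 and -1.32, Bmf on 1454880_s_at by 1.70 and 1.98, and Bok by -0.49 and -0.67. Of the 18 probe sets without a call, 5 had opposite signs. Among them, Bcl2l11 read -0.40 and 0.29 on 1435448_at and -0.28 and 0.18 on 1456005_a_at. With the 2 ranges fitted as a block, all 12 calls remained and that of Bid 1447873_x_at was added.

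**Figure D3:**
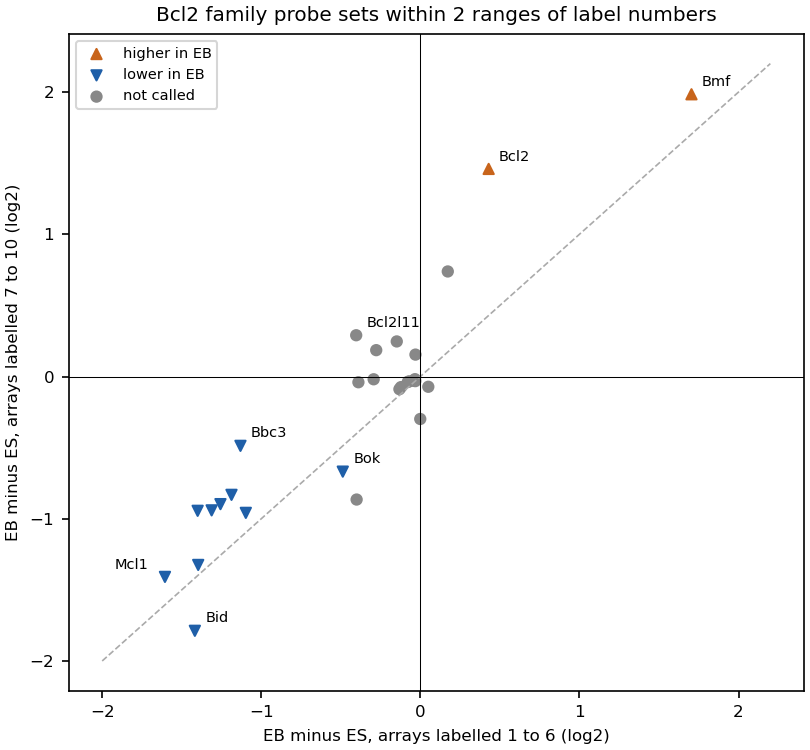
EB minus ESC difference in log2 GCRMA value within the arrays labelled 1 to 6 (horizontal axis, 2 ESC and 3 EB arrays) and within those labelled 7 to 10 (vertical axis, 2 and 2), for each of 30 Bcl2 family probe sets, with equality as the dashed line. The 12 called probe sets (triangles) share a sign in both ranges, as they must because their groups do not overlap. Of these, Bcl2 at 0.43 and 1.46 lies farthest from equality, and an uncalled Bcl2l11 probe set lies at -0.40 and 0.29.

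Lists of other apoptosis genes held 88 genes, of which 78 were measured by a probe set of their own. Of these, 16 were called higher and 15 lower in EBs, with a median difference of -0.03 beside -0.04 over all genes. These are 20.5% and 19.2% of the list genes, where 15.7% and 14.7% of all genes were called. The shares over all genes include those near the floor. A mean of at least log2 4 was reached by 66 of the 78 list genes and by 11982 of 18193 genes in all. With such probe sets fitted alone, 17 of these 66 list genes were higher and 17 lower. Over all 22766 such probe sets, a count of probe sets and not of genes, 5047 were higher and 4957 lower.

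Of 11 other Bcl2 family genes measured, 1 was higher and 2 were lower, with a median of -0.05. Pmaip1 (Noxa), a BH3-only partner of Mcl1, read 8.69 to 9.01 on the ESC arrays and 6.72 to 7.62 on the EB arrays, without overlap, and fell 2.84-fold (limma adjusted p = 2.2e-04). Bnip3, a hypoxia-induced mitochondrial protein of mitophagy, went from 10.01 ± 0.33 to 8.97 ± 0.46 (limma adjusted p = 0.0139), and Bcl2l2 (Bcl-w), an anti-apoptotic member, from 6.20 ± 0.28 to 6.82 ± 0.23 (limma adjusted p = 0.0186). The call on Bcl2l2 was lost without ES2 (limma adjusted p = 0.0543) or ES10 (0.0558), without either pair of ESC arrays (0.0523 and 0.0747), and with its probe sets averaged, where the difference shrank from 0.61 to 0.10 (0.139). Over its alternatives the adjusted p ranged from 0.0101 to 0.139. That on Bnip3 was lost without ES2 and ES6 (difference -0.75, limma adjusted p = 0.134). Bad and Bik, further BH3-only genes, were not called at differences of 0.22 and -0.07.

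Downstream of the mitochondria, 4 of 12 apoptosome and caspase genes were higher and 1 was lower, with a median of 0.02. Casp6, an executioner caspase, rose from 7.36 ± 0.22 to 9.15 ± 0.21, or 3.48-fold (limma adjusted p = 1.2e-05), Casp2 from 7.83 to 8.66 (adjusted p = 0.0010) and Apaf1, the scaffold of the apoptosome, from 8.29 to 8.93 (adjusted p = 0.0010). With probe sets averaged, Casp6 differed by 0.88 and Apaf1 by 0.39, both still called. Endog, a mitochondrial nuclease, fell from 6.74 to 6.23 (limma adjusted p = 0.0047). Of 7 inhibitors of apoptosis proteins measured, 1 was higher and 1 was lower, with a median of -0.04: Xiap, which blocks caspases, rose from 8.42 to 8.92 (limma adjusted p = 0.0033), and Birc5 (survivin), known also for its role in mitosis, fell from 11.09 to 10.66 (adjusted p = 3.9e-05). With the mean over its probe sets Xiap differed by -0.06 and was not called.

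Of 10 death receptor genes and adaptors, 1 was higher and 0 lower, with a median of 0.02. This was Tnfrsf1a, the main receptor of tumour necrosis factor, at 6.40 to 6.96 in ESCs and 7.55 to 8.16 in EBs (limma adjusted p = 4.6e-04), while Fas lay near the floor in both groups at 3.91 and 3.87. Cradd, an adaptor of Casp2, differed by -0.28 without a call.

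Of 16 p53 target and regulator genes measured, 3 were higher and 3 lower, with a median of -0.02. Cdkn1a (p21), the cyclin-dependent kinase inhibitor, rose from 8.84 ± 0.70 to 10.41 ± 0.24 (limma adjusted p = 0.0038), and Ccng1 from 11.75 to 12.29 (adjusted p = 0.0106), but the direction of Ccng1 depends on the probe set. With plain probe sets alone it was called lower (difference -0.41, limma adjusted p = 0.0029), and with probe sets averaged it was not called (0.16, adjusted p = 0.243), nor without ES2 and ES6 (0.36, adjusted p = 0.103). Without ES2 and ES6 the rise of Cdkn1a was 0.98, still called. Gadd45a, a stress-response gene, fell 3.66-fold, from 10.09 ± 0.12 to 8.22 ± 0.02 (limma adjusted p = 1.2e-07), and Aen, a p53-induced nuclease, from 10.22 to 9.67 (adjusted p = 6.6e-05), a difference of -0.54 that was -0.31 with probe sets averaged. Mdm2, which targets p53 for degradation, differed by -0.20 and was not called. Bbc3 and Pmaip1, known p53 targets too, were thus lower where Cdkn1a was higher.

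Of 11 regulators of BH3-only genes and of Mcl1 turnover, 1 was higher and 3 were lower, with a median of -0.12. Dynll2, the dynein light chain that binds Bmf, rose from 9.38 ± 0.10 to 10.53 ± 0.08, or 2.21-fold (limma adjusted p = 1.9e-06), while Dynll1, the chain that binds Bcl2l11, differed by 0.02 without a call. Usp9x, a deubiquitinase of Mcl1, fell from 9.20 to 8.94 (limma adjusted p = 0.0012), as did the ubiquitin ligase subunit Fbxw7, from 8.70 to 8.38 (adjusted p = 0.0089), a call lost without ES2 and ES6 (0.0533).

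Of 11 mitochondrial partners and dynamics genes, 5 were higher and 5 lower, with a median of -0.10. Dnm1l (Drp1), which divides mitochondria, fell from 10.99 ± 0.44 to 10.02 ± 0.16 (limma adjusted p = 0.0042), Ppif (cyclophilin D) from 9.57 to 8.86 (adjusted p = 8.0e-05) and Slc25a5, an ADP/ATP carrier, from 13.42 to 12.76 (adjusted p = 2.9e-06). The fall of Dnm1l was 0.60 on the log2 scale without ES2 and ES6, and that of Slc25a5 was 1.11 with plain probe sets, both still called. Opa1, which fuses inner membranes, rose from 8.95 to 9.44 (limma adjusted p = 0.0218), a call lost without EB1 (0.0529), EB7 (0.0547), ES8 (0.0621) or both ES8 and ES10 (0.0688), and with the mean over its probe sets it differed by -0.15, over alternatives with adjusted p of 9.3e-04 to 0.22.

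**Figure D4:**
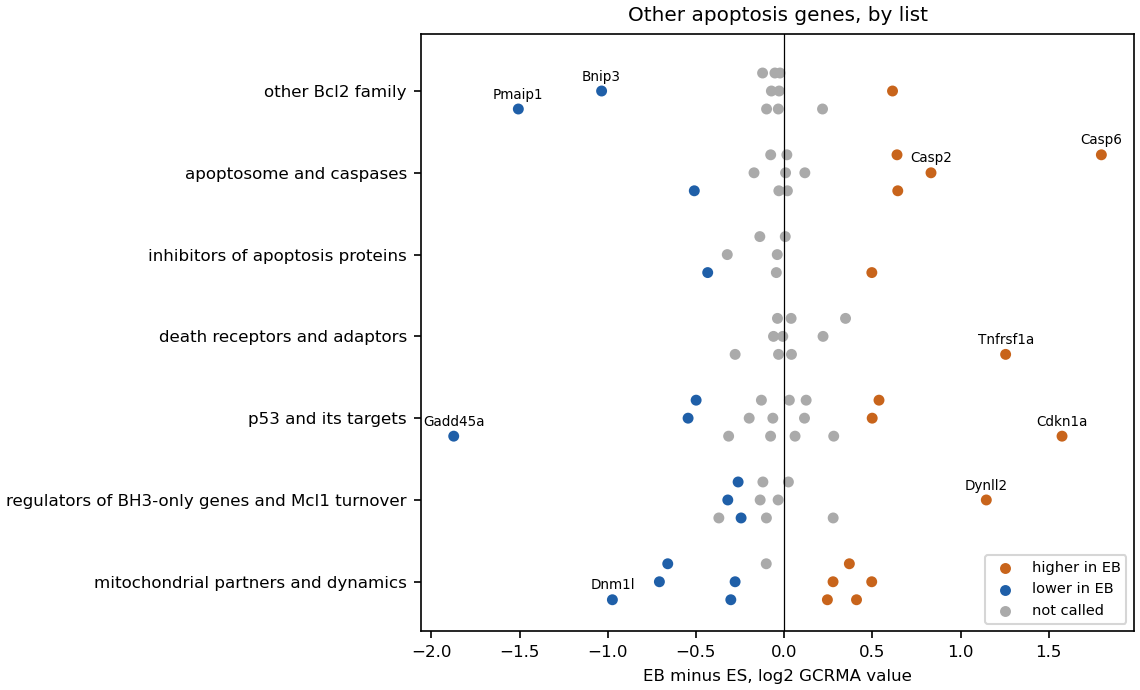
EB minus ESC difference in log2 GCRMA value (horizontal axis) for 78 other apoptosis genes in 7 lists (vertical axis), coloured by call, with the called genes farthest from 0 labelled. Casp6 at 1.80 and Cdkn1a at 1.58 lie farthest to the right, and Gadd45a at -1.87 and Pmaip1 at -1.51 farthest to the left.

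The genes whose values followed the Bmf representative most closely over the 9 arrays, among 11982 genes with a mean of at least log2 4, were Spon1, Gyg and F2r (Pearson r of 0.999, 0.997 and 0.997). Those closest to Bid were Agpat5, Jmjd1c and Ccna2 (r of 0.997, 0.997 and 0.996). All points share the group difference, which sets most of these values: 694 genes exceeded r = 0.95 with Bmf and 993 with Bid.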

How the data were processed

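RNA of 4 ESC and 5 embryoid body samples was measured on Affymetrix mouse arrays. The authors deposited GCRMA values as intensities on a linear scale, which GCRMA makes by subtracting a sequence-modelled background, normalizing arrays to one distribution and summarizing each probe set. Whether all 9 arrays were normalized together is not given in the sources used here. The log2 of each value was taken with no further normalization, 64 control probe sets were left out, and 45037 were fitted with limma 3.58.1 in R 4.3.3 (eBayes with trend and robust). The fit was tested on simulated data. The precision rests on the number of arrays.

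Symbols came from the array's annotation, promoter windows from RefSeq (10 of 10 members matched). Groups came from the sample titles. Named genes were the 10 members and, per list, up to 4 called genes with the largest difference and no overlap, and 3 genes most like the member with the largest rise and the one with the largest fall. Genes named without a call were chosen after their values were seen, as were the motifs. The gene pairs of the within-array ratios were not chosen by a rule set beforehand. Members and lists were chosen with earlier results of these data known. Alternatives were quantile normalization, centring on array medians, no trend or robust step, array weights, an offset of 16, a mean of at least log2 4, plain _at probe sets, a fold of at least 2, the label-number block (1 to 6 against 7 to 10), the average of all probe sets per gene and each array left out, with 2 added after the values were seen, leaving out ES8 and ES10 or ES2 and ES6.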

Additional observations from a re-analysis of the deposited data

Results flagged for a closer look

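In 60 sets of values (30 probe sets in 2 groups), 8 single arrays stood far from the rest of their group by Dixon's test, where chance gives about 1 in 20. Among the called genes, Bbc3 had a single distant array: EB5 read 8.18 where the other EB arrays read 8.50 to 8.62.

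On probe sets without a call, ES8 read 6.96 for Bcl2l1 (1420887_a_at) against 6.33 to 6.41 on the other ESC arrays, ES6 read 6.42 for Bcl2l11 (1456006_at) against 5.96 to 5.98, and EB3 read 4.18 for Bcl2l11 (1426334_a_at) against 4.40 to 4.45. Smaller gaps, under 0.2, were those of EB5 at 7.72 for Bak1 (1418991_at), of ES10 at 4.30 and EB1 at 3.92 for Bcl2 (1440770_at), and of ES10 at 2.48 for Bmf (1422995_at), which lies at the floor.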

How the results depend on the processing

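Mcl1, Bid, Bbc3 and Bok were called lower under every alternative that tested them, except that Bok and Bbc3, at -0.57 and -0.83, fell short of a fold of 2, which left 2 genes lower. The only Bmf probe set that rose is no plain one: with plain probe sets 0 genes were called higher (Bmf -0.0335, adjusted p = 0.0925), and of the family's 17 plain probe sets 1 was higher and 6 were lower. With all probe sets of a gene averaged, 2 genes were higher, the added one being Bcl2 at 0.25 (adjusted p = 0.0271, against 0.0271 to 0.866 over its alternatives). The difference of Bcl2 turned to -0.0685 with quantile normalization and, with an array left out, ranged from -0.0319 (without EB9) to 0.0836, and that of Bcl2l1 turned to 0.0073 with centring and ranged from -0.0655 to 0.0356 (above 0 without EB5, ES8 or ES10), or 0.0445 without both ES8 and ES10, and that of Bcl2l11 to 0.0655 without ES2 and ES6, all uncalled.

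Array weights raised the family's lower probe sets from 10 to 17, but 5 of the 7 gained differed by under 0.1, at floor levels of 2.02 to 2.51. A fold of at least 2 left 1 higher. With an array left out there were 10 to 15 lower, the 15 without EB9, and 4 of the 5 gained then differed by under 0.1. Over all probe sets the lower calls, 4778 in the main setting, were 7272 with centring, 12834 with array weights, 2997 with plain probe sets, 4088 to 12735 with an array left out (12735 without EB9) and 1104 with a fold of at least 2, where the higher ones were 1736 and the list genes 4 higher and 3 lower. Ccng1 turned to -0.41 with plain probe sets, where it was called lower, and Opa1 and Xiap to -0.147 and -0.0572 with probe sets averaged. No paired analysis was possible because the groups share no label number and the labels name no pairs. The floor limits what probe sets under log2 4 can show.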
